A study of Mus musculus with 2 samples.

Results

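The lymphatic endothelial nuclei of the chronically inflamed mouse colon numbered 91 of the 9586 nuclei that passed the filters, from 9668 barcodes. Nuclei with 400 to 5000 detected genes and at most 10% mitochondrial counts were kept, and a nucleus was taken as lymphatic endothelial when it held transcripts of at least 3 of 8 lymphatic genes, which had to make up at least 0.3% of its unique molecular identifiers (UMIs, each standing for 1 captured RNA molecule). The genes were Prox1, Lyve1, Sema3d, Ntn1, Col23a1, Flt4, Mmrn1 and Reln, and at least 1 of the 4 genes Prox1, Flt4, Mmrn1 and Reln had to be among those detected. The nuclei were thus selected on the measured counts of these 8 genes, whose levels therefore describe the selection and are no finding.

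Single-nucleus RNA sequencing was performed on snap-frozen whole colon of mice aged 8 to 12 weeks that had received 4 cycles of 2% dextran sodium sulfate (DSS) in the drinking water, with 3 days of DSS and 4 days of plain water in each, and were analysed on day 28. DSS injures the colonic epithelium, and repeated cycles lead to chronic colitis. WT mice were compared with mice of the genotype Ncr1cre+ Hif-1{alpha}fl+/fl+ (HIF-1α KO, here KO), in which Cre recombinase is driven by the promoter of NKp46, a receptor of natural killer cells and of a subset of innate lymphoid cells, so that the oxygen-regulated transcription factor HIF-1α is lost in those cells and lymphatic endothelium is not the cell type targeted. Each genotype was represented by 1 library that pooled 3 mice, so that no comparison between genotypes had a replicate check, animal and genotype cannot be told apart, and all intervals below cover counting error alone. No group without DSS was analysed here.

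Lymphatic endothelial cells line the blind-ended capillaries and valved collecting vessels that drain fluid, absorbed lipid and migrating leukocytes from the gut wall. Their identity is kept by the transcription factor PROX1, their growth by the ligand VEGF-C through the receptor VEGFR-3 (encoded by Flt4), and they attract dendritic cells and T cells that bear the receptor CCR7 by secreting the chemokine CCL21. Capillaries are rich in the hyaluronan receptor LYVE1 and in CCL21, while collecting vessels have less LYVE1 and carry valves.

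The WT library held 64 lymphatic endothelial nuclei and the KO library 27. Their median depth was 1859 UMIs in WT (range 1236 to 11083) and 2334 in KO (range 1081 to 4631), against 2058.5 and 4197 in all filtered nuclei of the same libraries, so the lymphatic nuclei were near the depth of their library in WT and well below it in KO. Summed over nuclei, 170895 UMIs in WT and 62806 in KO carried the comparisons below. Of all barcodes, 3 occurred in both libraries, and 0 of these belonged to lymphatic endothelial nuclei. The lymphatic genes took a median of 0.684% of the UMIs of a lymphatic nucleus in WT and 0.686% in KO. The highest share just outside the limit was 0.284% in WT and 0.271% in KO, and the lowest just inside was 0.302% and 0.354%. On the share alone, 18 nuclei in WT and 12 in KO were left out.

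Transcripts of at least 1 of 6 genes of endothelium in general were found in 53 of the 64 WT nuclei (82.8%) and in 23 of the 27 KO nuclei (85.2%). Among all other nuclei, such a transcript was found in 739 of 4820 in WT (15.3%) and 622 of 4675 in KO (13.3%). Muc2, the goblet cell mucin and a sensitive sign of RNA released from broken cells, had a UMI in 62.5% of the lymphatic nuclei in WT and 88.9% in KO, at 521 and 844 CPM (UMIs of a gene per 1000000 UMIs of all genes, summed over the nuclei of a set), which was below its level in all other nuclei (1061 and 1237). A rule for epithelial cells was also met by 20 of the 64 WT nuclei and 11 of the 27 KO nuclei. Another rule was met by 1 WT nucleus, for enteric neurons, and by 2 KO nuclei, for blood endothelium and for B cells.

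Markers of neighbouring cell types were present at mixed levels. Macrophage genes summed to 205 CPM in WT and 63.7 in KO, against 31.6 and 19.5 in all other nuclei. T cell and innate lymphoid genes summed to 135 and 127, against 72.4 and 77.0. Pericyte genes summed to 152 and 79.6, against 79.3 and 40.2, and blood endothelial genes to 714 and 780, against 90.8 and 44.3 in all other nuclei and 5594 and 5431 in blood endothelial nuclei. These sums were thus above all other nuclei in both libraries, and their part in the results below was not tested. The fibroblast genes summed to 140 CPM in the WT nuclei and 63.7 in the KO nuclei, below the 387 and 142 of all other nuclei, and Pdgfra, which defines fibroblasts, was at 0 in both. The macrophage genes had 35 UMIs in WT and 4 in KO, of which 29 and 3 came from Mrc1, a mannose receptor that lymphatic endothelium also makes, while Cd163 was at 0 in both. Among T cell and innate lymphoid markers, Ptprc gave 21 of the 23 UMIs in WT and 6 of the 8 in KO, and Cd3e was at 0. B cell genes stood higher than in all other nuclei, at 1264 and 1751 CPM, through Ebf1 (202 and 97 UMIs), a transcription factor that is not restricted to B cells. The other 7 B cell genes gave 14 and 13 UMIs.

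The share of lymphatic endothelial nuclei was lower in KO. They made up 1.31% of the filtered nuclei in WT (64 of 4884, exact Clopper-Pearson 95% interval 1.01 to 1.67%) and 0.574% in KO (27 of 4702, 0.379 to 0.834%), and the log2 ratio of KO to WT was -1.19 (exact 95% interval -1.90 to -0.52). Fibroblast, smooth muscle and blood endothelial nuclei were also fewer in KO. Fibroblast nuclei gave 105 in WT and 44 in KO with a log2 ratio of -1.20, smooth muscle nuclei 150 and 50 with -1.53, and blood endothelial nuclei 33 and 9 with -1.82, whereas enteroendocrine nuclei, an epithelial class, were at 94 and 92 with 0.02. Enteric neuron nuclei gave 23 and 16 with a log2 ratio of -0.47 (-1.49 to 0.51), and B cell nuclei 35 and 51 with 0.60 (-0.05 to 1.26), so not every class beneath the epithelium was fewer in KO beyond counting error. As a share of the lymphatic, blood endothelial, fibroblast and smooth muscle nuclei together, the lymphatic nuclei were 18.2% in WT (64 of 352, 14.3 to 22.6%) and 20.8% in KO (27 of 130, 14.2 to 28.8%), and that log2 ratio was 0.19 (-0.51 to 0.86). The lymphatic nuclei included those that met an epithelial rule, while the other classes left such nuclei out. With such nuclei kept, blood endothelial nuclei numbered 36 in WT and 15 in KO. The part of this unlike choice in the class ratios and in that share was not tested. As a share of the lymphatic nuclei together with all nuclei that met no epithelial rule, they were 3.20% in WT (64 of 2001) and 2.47% in KO (27 of 1092), with a log2 ratio of -0.37 (-1.08 to 0.30). The lower share of all nuclei thus came with an interval that excluded 0, and both narrower shares had intervals that included it. How much mucosa and how much deeper wall entered each preparation is not given in the sources used here, and its part in the share was not tested.

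**Figure D1:**
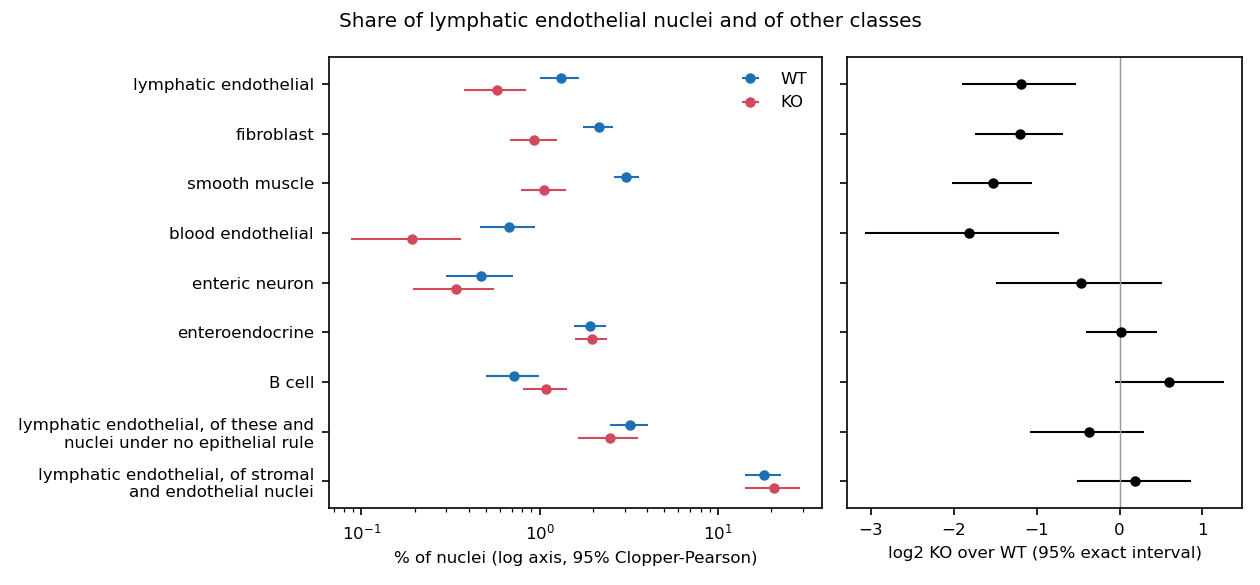
Left, the share of nuclei in % on a log axis for the lymphatic endothelial nuclei and 6 other classes in the WT (blue) and KO (red, HIF-1α KO) library, with the lymphatic nuclei also as a share of themselves plus nuclei under no epithelial rule and of stromal and endothelial nuclei, and lines giving exact 95% intervals. Right, the log2 ratio of KO to WT with its exact 95% interval, which lies below 0 for the lymphatic share of all nuclei (-1.19) and spans 0 for both narrower shares (-0.37 and 0.19).

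Reelin, encoded by Reln, is a large secreted matrix glycoprotein known best from the layering of neurons and made by lymphatic endothelium. Reln (ENSMUSG00000042453, GRCm38 chromosome 5, 21884454 to 22344702, minus strand) gave 415 UMIs in WT and 128 in KO, or 2428 and 2038 CPM, against 12.8 and 3.14 in all other nuclei of the same library. It was detected in 58 of 64 and 22 of 27 lymphatic nuclei. The 5 WT nuclei richest in Reln held 36, 35, 34, 33 and 33 UMIs, and the 5 richest KO nuclei 15, 15, 13, 13 and 10. Mmrn1 (ENSMUSG00000054641), the matrix protein multimerin 1, was at 1334 CPM in WT and 669 in KO, and its log2 ratio (95% interval -1.51 to -0.52) fell just short of 2-fold. Flt4 (ENSMUSG00000020357, chromosome 11, 49609263 to 49652739, plus strand), the VEGF-C receptor, was at 837 and 525. Prox1 (ENSMUSG00000010175, chromosome 1, 190118035 to 190170714, minus strand) was at 573 and 892. Lyve1 rested on few molecules, 49 UMIs in WT and 7 in KO, and its log2 ratio of -1.36 (-2.75 to -0.21) was not past the threshold used below. Ntn1 (ENSMUSG00000020902, chromosome 11, 68209364 to 68400823, minus strand), the guidance protein netrin 1, was at 1241 and 1242, and overlaps another annotated gene on its strand. Col23a1, a membrane collagen, was at 1106 and 1672, and Sema3d, a secreted semaphorin, at 690 and 573. All 8 selecting genes were thus present in both libraries, and none of them passed the threshold between genotypes.

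Lymphatic genes that the selection did not use were high in the same nuclei. A gene was counted as tested when the lymphatic nuclei of both libraries together held at least 20 of its UMIs, and as past the threshold when 2 levels differed by 2-fold or more with exact 95% Poisson intervals that did not overlap. Over all 2771 genes tested, 423 (15.3%) were past it above all other nuclei in both libraries and 145 (5.23%) below. Of 20 further genes known from lymphatic endothelium, 13 were tested and 12 of these were above all other nuclei in both libraries, the exception being the transcription factor gene Foxp2 (164 and 223 CPM against 99.8 and 73.0). Nrp2, the co-receptor of VEGF-C, was at 819 CPM in WT and 844 in KO, against 134 and 98.4 in all other nuclei. It was not particular to the lymphatic nuclei, as enteroendocrine nuclei held 947 and 835 CPM and smooth muscle nuclei 509 and 885. Maf, a transcription factor of lymphatic endothelium, was at 767 and 462, and 0 of its UMIs were found in blood endothelial nuclei. Nr2f2, the COUP-TFII gene that acts with Prox1, was at 392 and 303, and Pdpn, the mucin-like podoplanin, at 140 and 223. Of genes tied to valves and stretch, Itga9 was at 492 and 510, beside 501 and 359 in smooth muscle nuclei, and Piezo2 was at 632 and 653. Foxc2, which marks valves and collecting vessels, had 0 UMIs in the 64 WT nuclei and 0 in the 27 KO nuclei. A count of 0 allows up to 3 UMIs, so Foxc2 was below the depth of these libraries and not shown to be absent.

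**Figure D2:**
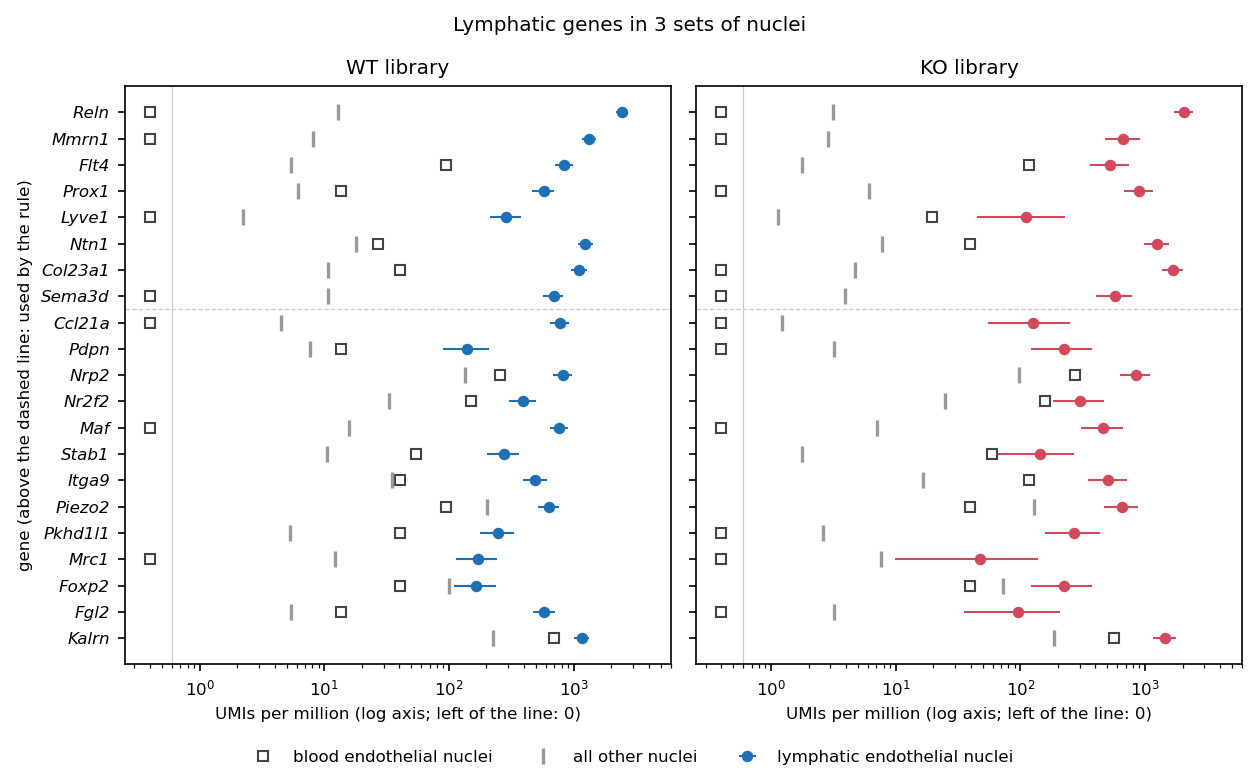
Level in CPM (log axis, values of 0 left of the grey line) of the 8 selecting genes, above the dashed line, and of 13 further lymphatic genes, in lymphatic endothelial nuclei (filled points with exact 95% Poisson intervals), blood endothelial nuclei (open squares) and all other nuclei (grey ticks), for the WT library on the left and the KO library on the right. The lymphatic nuclei stand highest for all of these genes in WT, and Ccl21a and Fgl2 stand lower in KO (127 and 95.5) than in WT (778 and 579).

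With the selecting genes left aside, the genes that set the lymphatic nuclei apart were ranked by their ratio to all other nuclei in whichever library gave the smaller ratio. D5Ertd615e, a gene with no established role, led with 889 CPM in WT and 557 in KO, which was 124-fold and 164-fold over all other nuclei, and it overlaps another annotated gene on its strand. Klhl4, of the kelch family, reached 339 and 510 (120-fold and 414-fold), and Pard6g, a cell polarity protein, 568 and 462 (120-fold and 247-fold). Sh3gl3, an endophilin of membrane uptake, was at 433 and 382. Cldn5, the claudin of endothelial tight junctions, was at 99.5 and 111 and stood 52.1-fold and 219-fold over all other nuclei. Ccl21a, Adgrg3, Wipf3, Nrcam, Lbp, Dmtn, Dtx1 and Apba2 were also among the highest. Each was above all other nuclei in both libraries, as the ranking requires.

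Blood endothelial nuclei, the class closest to the lymphatic nuclei, were defined by the same limits from Flt1, Plvap, Emcn, Vwf, Cyyr1, Ptprb, Sox17 and Cd34. These genes thus describe that selection. Unlike the lymphatic nuclei, the blood endothelial nuclei excluded any nucleus that met another class rule. They numbered 33 in WT and 9 in KO, with 73472 and 51007 UMIs, and 1 KO nucleus held 25.8% of the latter. Of 3893 genes tested between both endothelia, 85 (2.18%) were past the threshold above blood endothelium in both libraries and 89 (2.29%) below it. With blood endothelial nuclei of an epithelial rule kept (36 in WT and 15 in KO), 91 of 4060 were above and 86 below. The pan-endothelial genes were shared but leaned to blood vessels. Of the 15 tested against all other nuclei, 15 stood above them in both libraries. Of the 17 tested between both endothelia, 0 were higher and 7 were lower in lymphatic than in blood nuclei. The pan-endothelial genes include Ptprb, a gene of the blood rule, whose level in blood nuclei describes that selection. Pecam1, the junction protein CD31, was at 363 and 223 CPM in lymphatic nuclei against 953 and 2078 in blood endothelial nuclei. Kdr, encoding VEGFR-2, was at 263 and 255 against 191 and 274, a log2 difference of 0.47 in WT and -0.11 in KO that was not past the threshold.

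Of the vascular matrix genes, 16 were tested between both endothelia, of which 5 were higher and 4 lower in lymphatic nuclei. Any selecting gene among the 5 stands higher through the choice of nuclei. Reln is a selecting gene, so its excess is fixed by the choice of nuclei. It had 0 UMIs in blood endothelial nuclei, which put the lymphatic level at least 5.89 log2 units higher in WT and 5.11 in KO when the 0 was set to the floor of 3 UMIs. Outside the selecting genes, Pcsk6, a proprotein convertase that cleaves secreted precursors, was 4.85 and 5.61 log2 units higher. Sema3a, a secreted semaphorin that binds neuropilins, was at 977 and 701 CPM in lymphatic nuclei, against 2 and 0 UMIs in blood endothelial nuclei. Cp, the copper ferroxidase ceruloplasmin, was at 614 and 1019 against 1 and 0 UMIs. Abi3bp, an extracellular matrix protein, was 4.21 and 4.74 log2 units higher, and Slc9a9, an endosomal sodium-proton exchanger, 3.57 and 4.83. Lama4, the laminin α4 chain of vessel basement membranes, was 2.05 and 2.02 log2 units higher, while the type IV collagen chain Col4a1 was lower, with log2 differences of -1.65 and -1.86. Both are thus basement membrane genes, and they lay on opposite sides.

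On the blood side, Flt1, a VEGF receptor and a gene of the blood rule, had 1 UMI in the lymphatic nuclei of WT and 0 in KO, against 158 and 96 in blood endothelial nuclei. Plcb1, a phospholipase C, was at 158 and 191 CPM in lymphatic nuclei against 4941 and 5489 in blood endothelial nuclei. Adamts9, a metalloprotease that cleaves proteoglycans, had log2 differences of -4.30 and -3.79 to its blood level. Slco2a1, the prostaglandin transporter, had 7 and 3 UMIs in lymphatic nuclei against 136 and 35, and Entpd1, the ectonucleotidase CD39, 6 and 0 against 88 and 32. Heg1, a junction-associated receptor, Rapgef4, Lrrc8c, St8sia4 and the blood marker Vwf completed the 10 genes furthest on that side. The lymphatic nuclei of either library held at most 27 UMIs of any of these 10 genes.

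**Figure D3:**
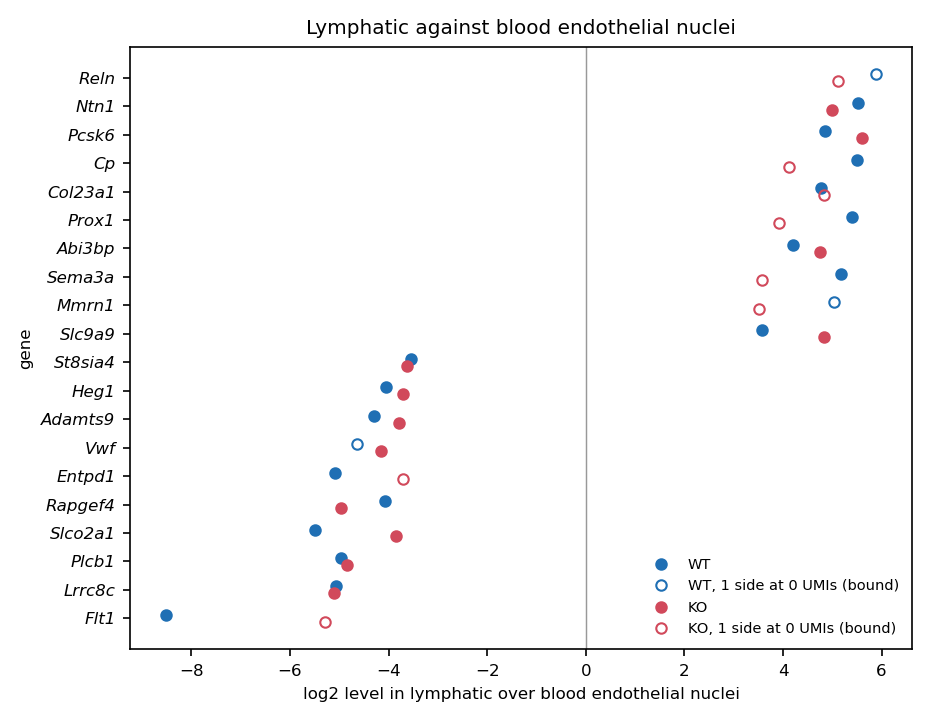
Log2 level in lymphatic over blood endothelial nuclei for the 10 genes furthest to each side, in WT (blue) and KO (red), with open points for ratios in which 1 side had 0 UMIs and was set to 3. All points lie on the same side of 0 in both libraries, which the choice of genes requires, and Flt1 lies lowest.

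By role, the receptors of VEGF-C were represented by the selecting gene Flt4, whose level describes the selection, and by Kdr and Nrp2, given above. Of 18 genes of VEGF-C signalling, 7 were tested, and 6 of these, the selecting gene Flt4 among them, were above all other nuclei in both libraries. Between genotypes, 0 passed the threshold. Vegfc itself had 4 UMIs in the lymphatic nuclei of WT and 5 in KO, or 23.4 and 79.6 CPM, against 184 and 284 in fibroblast nuclei and 163 and 353 in blood endothelial nuclei. Nrp1, the neuropilin of blood vessels, had 6 and 0 UMIs against 12 and 26 in blood endothelial nuclei. Tek, the angiopoietin receptor, was at 123 and 95.5 CPM in lymphatic nuclei against 272 and 314 in blood endothelial nuclei, and its ligand gene Angpt1 was at 247 and 522 in fibroblast nuclei against 2 and 2 UMIs in lymphatic nuclei. Calcrl, the receptor for adrenomedullin, was at 421 and 191 in lymphatic nuclei against 1143 and 627 in blood endothelial nuclei, with a log2 ratio of KO to WT in the lymphatic nuclei of -1.14 (-2.16 to -0.25) that was not past the threshold.

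Of the guidance ligands, Reln, Ntn1 and Sema3d are selecting genes, so their excess is fixed by the choice of nuclei. Sema3a, which the selection did not use, stood above all other nuclei in both libraries, while smooth muscle nuclei held 640 and 871 CPM beside the 977 and 701 of lymphatic nuclei. The receptors were mixed. Plxna4, a plexin that signals for class 3 semaphorins, was at 409.6 and 461.7 CPM against 26.7 and 14.1 in all other nuclei and 422 and 843 in blood endothelial nuclei. Of the receptors and adaptor for reelin, Vldlr had 1 UMI in WT and 1 in KO, Lrp8 had 0 and 0, and Dab1 had 0 and 2. Neo1, a netrin receptor, was at 199 and 175 CPM, below the 260 and 338 of all other nuclei. Unc5b, a netrin receptor of endothelium, was at 111 and 223 against 48.0 and 76.4 in all other nuclei. In all, 12 of 25 genes of this group were tested, and 9 were above all other nuclei in both libraries. The selecting genes Reln, Ntn1 and Sema3d are among the 9 through the choice of nuclei. Between genotypes, 0 passed the threshold.

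Of the genes for leukocyte traffic, 7 of 21 were tested and all 7 were above all other nuclei in both libraries. Il7, the cytokine that maintains lymphocytes and innate lymphoid cells, was at 117 CPM (20 UMIs) in the WT lymphatic nuclei and 175 (11 UMIs) in KO, against 20.2 and 33.8 in all other nuclei and 0 UMIs in blood endothelial nuclei of either library. Spns2, the transporter that exports sphingosine-1-phosphate, was at 135 and 143. Rspo3, an R-spondin that amplifies Wnt signals at the crypt base and is known from lymphatic endothelium, had 15 and 5 UMIs (87.8 and 79.6 CPM), below the 171 and 256 CPM of smooth muscle nuclei. Ccr7, the receptor for CCL21, had 1 and 0 UMIs. The median log2 ratio of KO to WT over the 7 traffic genes tested was -0.94, beside 0.05 over all genes tested. Of the 7, 3 had positive and 4 negative log2 ratios, and 1, Ccl21a, passed the threshold. The median was the value of Stab1, which did not pass it.

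Between genotypes, 66 of the 2771 genes tested in lymphatic nuclei (2.38%) passed the threshold, 35 (1.26%) higher and 31 (1.12%) lower in KO. Scaling by trimmed means of M-values (TMM) computed over all genes without a filter lowered all ratios by 0.24 log2 units and gave 14 higher and 66 lower, while the same method over the tested genes shifted them by 0.05. Of the 66, 29 stood at least 2-fold above all other nuclei in 1 library or both, among 665 such genes (4.36%), with 18 higher (2.71%) and 11 lower (1.65%) in KO. A gene could enter these 665 through the library in which it was high, so nothing is read from that share. Of the 29, 13 were above all other nuclei in both libraries with intervals apart, and 16 were not. The other 37 were 2-fold above all other nuclei in neither library. They included the epithelial genes Krt8, Krt19, Pigr and Spink4 and the mitochondrial transcripts mt-Co1 and mt-Co2. All of these named genes were higher in KO, where Muc2 stood at 844 CPM in the lymphatic nuclei against 521 in WT.

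Ccl21a and Fgl2 were the listed lymphatic genes that fell. Ccl21a (ENSMUSG00000094686, GRCm38 chromosome 4, 42772860 to 42773993, minus strand) encodes a form of the chemokine CCL21. Its near-identical copies Ccl21b and Ccl21c held 0 UMIs in these files, so reads of the copies cannot be told apart here. Fgl2 (ENSMUSG00000039899, chromosome 5, 21372642 to 21378374, plus strand), inside the span of Ccdc146 on the opposite strand, encodes a fibrinogen-like protein that exists as a membrane prothrombinase and as a secreted regulator of immune cells. The stretches before both start sites are shown because these genes were low together in KO. They are from RefSeq (GRCm38.p6), read 5′ to 3′ on the strand of the gene, and end at whichever annotated start, RefSeq or GENCODE, lies first. Capitals mark motifs found on either strand among 5 searched in the 250 bases before the RefSeq start: AGGAAG (ETS family, in 29.5% of 32851 promoters of that length), ACAATG (SOX family, 10.7%), AGATAA (family of GATA factors, 9.99%), AGGTCA (nuclear receptor half-site, 14.0%) and TGCTGA (MAF family, 16.1%). Ccl21a, chr4:42773994-42774241, minus strand, held 1 AGGAAG, and Fgl2, chr5:21372423-21372641, plus strand, held 1 ACAATG and 1 TGCTGA.
Ccl21a: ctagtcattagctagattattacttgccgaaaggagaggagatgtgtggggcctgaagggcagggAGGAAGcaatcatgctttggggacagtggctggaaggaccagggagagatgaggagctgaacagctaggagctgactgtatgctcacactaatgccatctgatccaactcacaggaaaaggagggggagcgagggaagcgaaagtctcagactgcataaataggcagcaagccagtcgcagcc
Fgl2: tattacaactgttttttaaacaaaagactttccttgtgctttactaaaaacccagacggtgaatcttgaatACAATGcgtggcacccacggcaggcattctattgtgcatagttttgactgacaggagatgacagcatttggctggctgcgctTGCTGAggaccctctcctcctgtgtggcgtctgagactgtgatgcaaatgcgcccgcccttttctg
They had none of the 5 motifs in common, and the motifs are letters in the reference and not evidence of binding.

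In the WT nuclei Ccl21a had 133 UMIs, or 778 CPM (95% Poisson interval 652 to 922), and in the KO nuclei 8 UMIs, or 127 (55.0 to 251). The log2 ratio was -2.61 (-3.85 to -1.59). It was detected in 24 of 64 WT nuclei (37.5%) and in 5 of 27 KO nuclei (18.5%), and with every nucleus thinned to 1000 UMIs in 29.7% and 11.1%. All other nuclei, with median depths of 2061 and 4205 UMIs, had a Ccl21a UMI in 1.08% and 0.620%. The WT counts were uneven, as 2 nuclei held 30 and 23 UMIs (39.8% of the total) and no KO nucleus held more than 2. Without those 2 nuclei the log2 ratio was -1.97, and over 17 alternative settings it ranged from -2.91 to -1.97. All other nuclei, which hold the released RNA of the whole tissue, had 4.51 CPM in WT and 1.23 in KO, a log2 ratio of -1.87.

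Fgl2 had 99 UMIs in WT and 6 in KO, or 579 and 95.5 CPM, with a log2 ratio of -2.60 (-4.08 to -1.43). It was found in 27 WT nuclei, the richest holding 20 and 16 UMIs, and in 4 KO nuclei, none with more than 2. Its ratio ranged from -3.16 to -1.71 over the alternatives, and in all other nuclei it was -0.77. Timp3 (ENSMUSG00000020044), a matrix-bound inhibitor of metalloproteases, had 187 and 31 UMIs, or 1094 and 494 CPM, with a log2 ratio of -1.15 (-1.75 to -0.59). Its fall was close to that in all other nuclei (-1.07), and without the 2 WT nuclei richest in Ccl21a the log2 ratio was -0.74, short of 2-fold. Timp2, a soluble inhibitor of the same family that overlaps another gene on its strand, had 42 and 4 UMIs with a log2 ratio of -1.95 (-3.89 to -0.49). Itm2b, a membrane protein, had 52 and 4 UMIs with -2.26 (-4.19 to -0.81), which was -0.75 in thinned nuclei.

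Among the other genes that fell, Cebpb, a transcription factor of the inflammatory response, had 38 and 1 UMIs with a log2 ratio of -3.80 (-9.14 to -1.24), which was -0.98 in thinned nuclei. Igfbp4, a binding protein of insulin-like growth factors, had 30 and 1 UMIs with -3.46 (-8.81 to -0.87). Cebpb and Igfbp4 thus rested on single KO molecules, so the size of their fall was poorly fixed. Ets1, an ETS transcription factor of endothelium, had 87 and 15 UMIs with a log2 ratio of -1.09 (-1.99 to -0.29). Lyve1, Mrc1 (29 and 3 UMIs), Stab1 (47 and 9 UMIs) and the caveolar gene Cavin2 (71 and 13 UMIs) had negative log2 ratios that did not pass the threshold. Lymphatic genes went both ways. Of the 8 selecting genes, 3 had positive and 5 negative log2 ratios, and of the 13 other lymphatic genes tested, 7 and 6.

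Neuronal genes among those that fell came for the larger part from 1 nucleus. Rbfox1, a neuronal splicing factor, had 113 UMIs in WT and 1 in KO, and 101 of them lay in 1 WT nucleus with 7944 UMIs that met the enteric neuron rule and also held 7 of the 8 lymphatic genes. The same nucleus held 50 of the 53 WT UMIs of Cntn5, 27 of 34 of Cntnap2, 39 of 44 of Dgki, 37 of 50 of Kcnb2 and 39 of 60 of Meg3. It had 1 UMI of Erg and 1 of Fli1 among the endothelial genes looked at. Whether it held RNA of more than 1 cell was not tested. Without it, 55 genes passed the threshold, 53 of them among the 66, and Dgki was left with 5 UMIs in each library, a log2 ratio of 1.38.

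**Figure D4:**
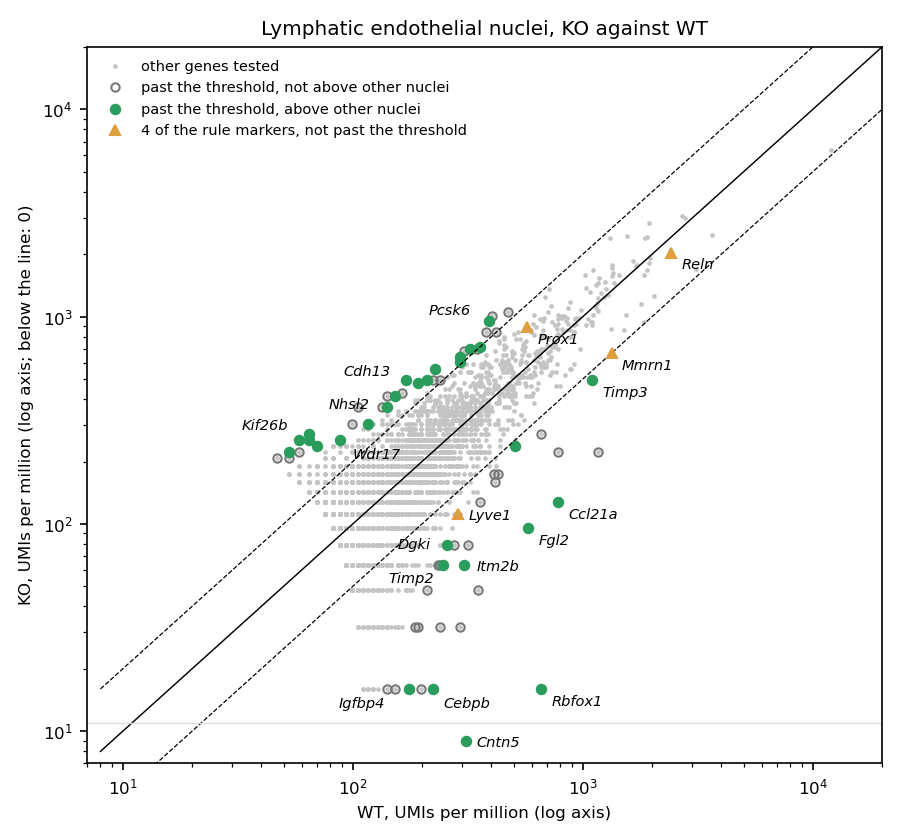
Level in CPM of the genes tested in lymphatic endothelial nuclei, WT against KO on log axes (0 below the grey line), with equality as a solid and 2-fold as dashed lines. Green points passed the threshold and stood at least 2-fold above all other nuclei in a library. Open circles passed it without doing so, and orange triangles are 4 selecting genes. Ccl21a (778 against 127) and Fgl2 (579 against 95.5) lie far below the line and Pcsk6 (392 against 955) above it.

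Of the genes higher in KO, Pcsk6 (ENSMUSG00000030513, GRCm38 chromosome 7, 65861734 to 66050386, plus strand) had the most molecules among those that stood above all other nuclei in both libraries. It had 67 UMIs in WT and 60 in KO, or 392 CPM (304 to 498) and 955 (729 to 1230), with a log2 ratio of 1.28 (0.76 to 1.81). It was detected in 26 of 64 WT nuclei (40.6%, 28.5 to 53.6%) and 17 of 27 KO nuclei (63.0%, 42.4 to 80.6%). With every nucleus thinned to 1000 UMIs, it was in 20.3% (11.3 to 32.2%) and 33.3% (16.5 to 54.0%). The intervals of these shares overlapped at both depths. In all other nuclei the ratio went the other way (-0.99). One KO nucleus held 16 of the 60 UMIs, without which the ratio was 0.93, and the alternatives ranged from 0.71 to 1.67. Cdh13, a cadherin anchored to the membrane by lipid, had 29 and 31 UMIs with a log2 ratio of 1.54 (0.76 to 2.32), but 71.0% of the KO molecules lay in 2 nuclei, and in thinned nuclei the ratio was 0.08. Kif26b, an atypical kinesin, had 11 and 17 UMIs with 2.07 (0.89 to 3.31), which was 0.83 in thinned nuclei. Nhsl2 had 24 and 23 with 1.38 (0.49 to 2.27), and Wdr17 had 15 and 16 with 1.54 (0.43 to 2.66). Ern1, a sensor of endoplasmic reticulum stress, had 10 and 16 UMIs, at most 2 in 1 nucleus, with 2.12 (0.89 to 3.42). Frmd4a, Msra, Fbxo42, Sptan1 and Tbck completed the 10 highest, at log2 ratios of 1.37 to 2.08. These gains were smaller than the falls of Ccl21a and Fgl2, and each of the 10 highest had at most 31 UMIs in either library.

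**Figure D5:**
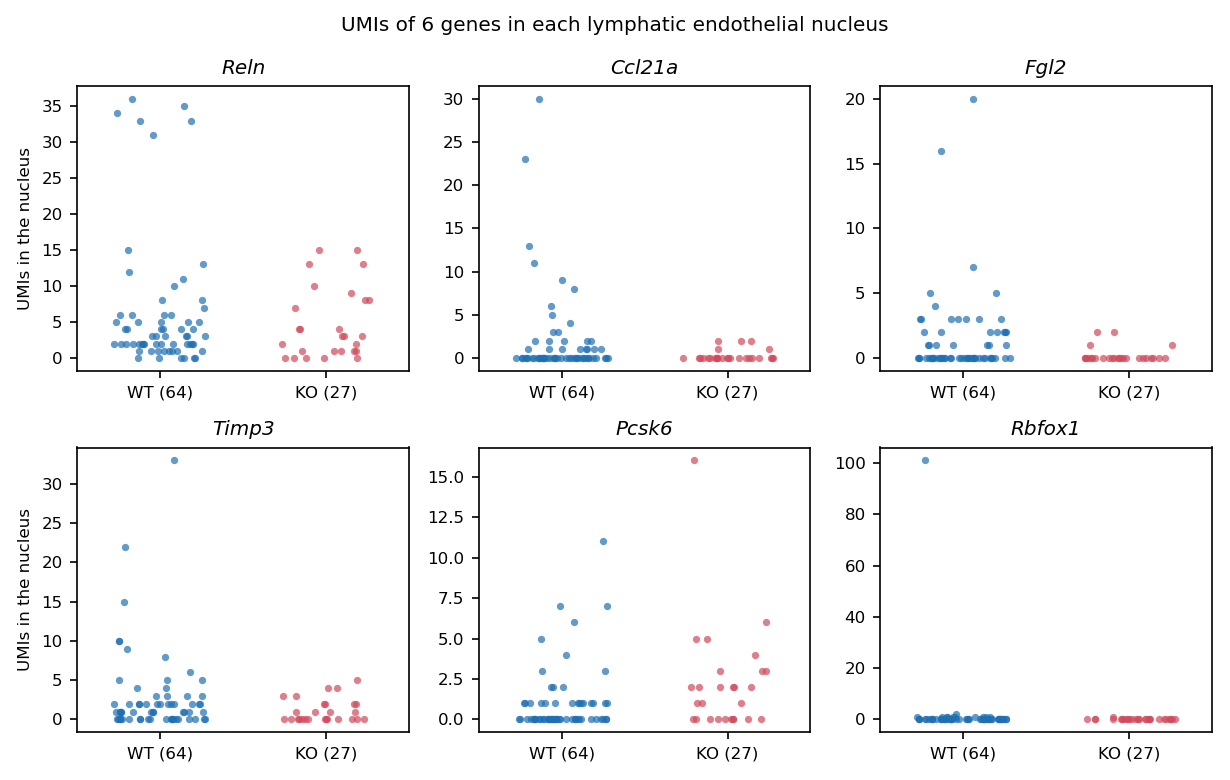
UMIs of 6 genes in each lymphatic endothelial nucleus, 1 point per nucleus, with 64 WT nuclei (blue) and 27 KO nuclei (red). Ccl21a and Fgl2 reach 30 and 20 UMIs in WT and no more than 2 in KO, Pcsk6 is spread over both genotypes, and 1 WT nucleus holds 101 of the 113 Rbfox1 UMIs.

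At the depth deposited, Ccl21a and Fgl2 were mostly found in the same WT nuclei. Fgl2 was detected in 20 of the 24 WT nuclei with a Ccl21a UMI (83.3%, exact binomial 62.6 to 95.3%) and in 7 of the 40 without (17.5%, 7.34 to 32.8%). The nuclei with Ccl21a were deeper, with a median of 2389 UMIs against 1753. At an equal 1000 UMIs Fgl2 was found in 10 of 19 nuclei with Ccl21a (28.9 to 75.6%) and 7 of 45 without (6.49 to 29.5%). These intervals overlapped slightly. Timp3 was detected in 22 of 24 against 21 of 40. Thinned, it was in 16 of 19 (60.4 to 96.6%) against 19 of 45 (27.7 to 57.8%), with intervals apart. Cavin2, a scaffold of caveolae, was in 20 of 24 against 10 of 40, and Lyve1 in 14 of 24 against 7 of 40. Thinned, these were 10 of 19 against 10 of 45 for Cavin2 and 7 of 19 against 6 of 45 for Lyve1, with intervals that overlapped for both genes. Of the selecting genes, Reln was in 21 of 24 and 37 of 40, Mmrn1 in 22 of 24 and 24 of 40, and Flt4 in 21 of 24 and 27 of 40. In KO only 5 nuclei had Ccl21a, and Fgl2 was in 1 of these and in 3 of the other 22.

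The counts for gene groups fixed by list stand beside the 2.38% of all tested genes that passed the threshold between genotypes, and lists of this size hold few or none at that share, so nothing particular to a list is read from them. Of 22 vascular matrix genes, 13 were tested, 12 stood above all other nuclei in both libraries, and 1 (Timp3) passed the threshold between genotypes. Any selecting gene on a list stands above all other nuclei through the choice of nuclei. Of the 13 other lymphatic genes tested, 2 (Ccl21a and Fgl2) did so. The remaining lists, for pan-endothelial genes (15 tested, median log2 ratio -0.14), blood endothelium (6, 0.18), valves and collecting vessels (9, 0.22), endothelial junctions (16, 0.17), Notch (5, 0.00), TGF-β and BMP (13, -0.27), integrins (5, 0.05) and lipid handling (6, -0.29), had 0 genes past it in either direction, as had the angiopoietin and adrenomedullin genes (2, -0.75). Interferon and inflammatory genes (6 of 22 tested, median -0.65), immediate-early genes (4 of 14, -0.49), hypoxia genes (3 of 18, -0.02) and sex-linked genes (4 of 6, 0.52) also had 0 past the threshold. With 27 KO nuclei, the depth could not show a difference in most list members, since only genes with at least 20 UMIs were tested. Hif1a, the gene deleted in NKp46+ cells, gave 34 UMIs over the lymphatic nuclei of WT and 11 over those of KO, or 199 and 175 CPM, with a log2 ratio of -0.18 (-1.31 to 0.83). Ncr1, which encodes NKp46, had 0 UMIs in the lymphatic nuclei of both libraries.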

How the data were processed

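The authors isolated nuclei from snap-frozen colon, prepared 1 droplet library (10x Genomics 3′ chemistry) per genotype and, per the labels and the methods of the study, made the deposited counts with Cell Ranger 7.0.1 on mouse build mm10 (GRCm38). The values are raw counts of UMIs per gene and nucleus, whole numbers without normalization. Whether reads in introns were counted is not given in the sources used here. Doublets were removed only through the upper limit of 5000 detected genes, as the study did.

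The members and gene lists were chosen with earlier results of these data known. UMIs were summed over the lymphatic endothelial nuclei of each library and expressed as CPM. With 1 library per genotype there was no test and no p-value. Levels carry exact 95% Poisson intervals, shares exact Clopper-Pearson intervals, and ratios exact conditional intervals, all for counting error only. A gene was tested with at least 20 UMIs and called at 2-fold with intervals apart, and a count of 0 was set to 3 UMIs for a bound. Other classes were taken by the same limits from 8 markers each, at least 3 of them detected and 0.3% of UMIs. Nuclei that met a second rule were left out of these classes, except among epithelial classes, but were kept among the lymphatic nuclei. To compare shares, nuclei were thinned to 1000 UMIs.

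Genes named are the selecting genes, those of 18 other lists, the 15 highest over all other nuclei (some of which are not reported here), the 10 highest and lowest between genotypes among genes above all other nuclei, the 5 highest and lowest over all genes, the 10 furthest from blood endothelium on each side, and Pecam1 and Kdr. Further genes of the 66, among them Ets1, Krt8, Krt19, Pigr, mt-Co1, mt-Co2, Kcnb2 and Meg3, and Muc2, Rspo3, Ccr7 and Ncr1 were named after their values were seen. Alternatives changed the member rule, the UMI minimum, the scaling and the nuclei included, and those that left out single nuclei or used TMM over all genes were chosen after seeing the data. Python 3.11.15, numpy 2.4.6, pandas 2.3.3, scipy 1.17.1, R 4.3.3 and edgeR 4.0.16 (TMM factors only) were used, and the scripts were tested on simulated data. Gene positions are from GENCODE M21, which held 32158 of the 32285 gene identifiers.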

Additional observations from a re-analysis of the deposited data

Results flagged for a closer look

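Of the 29 genes that passed the threshold between genotypes and stood above all other nuclei, 11 had ratios of KO to WT with opposite signs in lymphatic endothelial nuclei and in all other nuclei. In each case the difference between both sets of nuclei was not tested, since each genotype is 1 library. All other nuclei also differed in make-up, with 105 fibroblast and 150 smooth muscle nuclei in WT and 44 and 50 in KO. The part of this in their ratios was not tested. The log2 ratio of Itm2b was -2.26 in lymphatic nuclei and 0.29 in all other nuclei. The other 10 were higher in KO in the lymphatic nuclei. Pcsk6 was at 1.28 against -0.99, Nhsl2 at 1.38 against -1.10, Cdh13 at 1.54 against -1.07 and Kif26b at 2.07 against -1.07. Pgm5, a phosphoglucomutase relative of adhesion sites, was at 1.29 against -0.93, with 37.1% of its 35 KO UMIs in 1 nucleus. All 5 of these genes were above all other nuclei in both libraries. The remaining 6 of the 11 met that condition without being above in both libraries with intervals apart, so their opposite signs follow in part from how the genes were chosen. Frmd4a, which overlaps another gene on its strand, was at 2.08 against -0.31. Ttc3 was at 1.23 against -0.23, and Tead1, the DNA-binding partner of the Hippo pathway effectors, at 1.01 against -0.37. Atrx, a chromatin remodeller, was at 1.12 against -0.13 and Rev3l, a subunit of a DNA polymerase, at 1.31 against -0.10.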

How the results depend on the processing

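No paired analysis was possible because each genotype is 1 library, and leaving out a replicate was not possible for the same reason. The log2 ratio of the lymphatic share stayed between -1.46 and -0.95 over 9 alternatives. The count of genes past the threshold between genotypes (66, with 35 higher) moved most with the member rule. A marker share of 0.2% added 4 KO nuclei that held 36.4% of the KO UMIs and gave 174 genes (118 higher, 56 lower, 39 of the 174 among the 66), and a share of 0.5% gave 39 genes (17 higher). Leaving out members that met another class rule kept 43 WT and 15 KO nuclei and gave 53 genes, 31 of them among the 66. Thinned members gave 18 genes (8 higher, 10 lower, 9 of the 18 among the 66). No minimum of UMIs gave 63 higher, and TMM over all genes, chosen after seeing the data, 14 higher and 66 lower. Thinning left 176 genes above all other nuclei, and 44 apart from blood endothelium (12 higher, 32 lower). Dgki reversed to 1.56 at a share of 0.5%, 1.77 without nuclei of another rule, 1.38 without the nucleus of the neuron rule and 1.21 without nuclei deeper than the deepest of KO. The cause of the other moves was not tested. Of single values, 648 stayed within their counting interval, 21 moved beyond it and 4 reversed, all Dgki. With nuclei weighted equally, 57 of 65 genes were still past 2-fold the same way. At this depth genes with few UMIs, such as Foxc2, Ackr2 or Gata2, could not be compared.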
